A study of Homo sapiens with 8 samples.

Results

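The collagen and laminin chains were taken as every gene with a symbol of the form COL, number, A, number, together with the genes of the laminin alpha, beta and gamma chains (LAMA, LAMB and LAMC symbols). The rule found 56 genes among the 18693 symbols that had a protein-coding RefSeq entry in the files, namely 11 fibrillar collagen chains, 6 collagen IV chains, 12 laminin chains and 27 other collagen chains. The chains were measured by RNA-seq in A498 and 786-O, established cell lines of clear cell renal cell carcinoma (ccRCC), the commonest kidney cancer. Each line was transfected with a non-targeting control siRNA pool (NTC) or with 1 of 2 siRNAs against SLINKY, a long intergenic non-coding RNA, at 50 nM for 16 hours. The 16 hours are the length of the transfection, and the methods give a later time for RNA isolation. The labels speak of pools for all siRNAs. The paper lists a single sequence for each of the 2 SLINKY siRNAs and calls the NTC a pool, so siRNA 1 and siRNA 2 are taken here as single sequences. There were 2 NTC libraries and 2 knockdown libraries (1 for siRNA 1 and 1 for siRNA 2) in each line, 8 libraries in all. A498 cells were kept in DMEM and 786-O cells in RPMI-1640, so that the medium and the line cannot be told apart. The methods describe separate transfections with the 2 siRNAs, so the knockdown libraries of a line differ in siRNA and transfection. For the 2 NTC libraries of a line no source used here names separate cultures. The p-values measure the spread between these libraries, which for the NTC pairs may be technical. Values are FPKM (fragments scaled to transcript length and to the reads mapped in the library), a level per unit length, and in bulk RNA fewer cells of a type and less RNA per cell cannot be told apart.

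Collagens are built of 3 polypeptide chains wound into a triple helix. Fibrillar collagens such as I, III and V form the fibres of connective tissue, whereas collagen IV forms the sheet-like network of the basement membrane on which kidney tubule cells rest. Laminins are cross-shaped trimers of an alpha, a beta and a gamma chain that join collagen IV in that sheet and are bound by integrins. Chains join into trimers inside the cell before they are secreted.

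The coding entries rested on reads that numbered, in units of 1e6, 16.3 to 42.2 a library. SLINKY itself was at 14.6 and 16.1 FPKM in the NTC libraries of A498 and at 1.64 and 3.01 FPKM in its knockdown libraries, and at 1.45 and 1.39 FPKM in the NTC libraries of 786-O and at 0.0569 and 0.594 FPKM in its knockdown libraries. The labels were thus borne out by the targeted transcript in both lines. Of the 11 kidney tubule and ccRCC markers 10 were measured, and 7 had a mean of at least 1 FPKM in each line, PAX8 at 40.5 FPKM in A498 and 44.4 FPKM in 786-O among them. CA9 was low in both lines, at 0.460 and 0.00572 FPKM, and so were the tubule receptors LRP2 and CUBN. The 7 fibroblast and pericyte markers summed to 1.33 to 2.03 FPKM in A498 and 0.633 to 0.855 FPKM in 786-O, with PDGFRA, PDGFRB and DCN all under 0.1 FPKM in both. POSTN, a matrix protein on that list, was at 1.49 FPKM in A498. The 5 endothelial markers summed to at most 0.302 FPKM, and the leukocyte markers PTPRC and CD3E were at 0 in all 8 libraries, although the macrophage-associated CD68 was at 142 FPKM in A498 and 3.47 FPKM in 786-O.

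The first question was how the chains differed between the lines by class. Fibrillar chains were mostly an A498 signal, collagen IV and laminin chains differed little in sum, and the other collagens were higher in A498. Summed over the class, the fibrillar chains were at 31.3 ± 1.57 FPKM (SD, n = 4 libraries) in A498 and 2.41 ± 0.0538 FPKM in 786-O. Collagen IV chains summed to 118 ± 2.29 FPKM in A498 and 90.3 ± 4.22 FPKM in 786-O. Laminin chains summed to 189 ± 3.45 FPKM in A498 and 166 ± 2.27 FPKM in 786-O. All 4 libraries of A498 were above all 4 of 786-O in each of these 3 classes, but the ratio ran from 13.0-fold for the fibrillar chains to 1.30-fold for collagen IV and 1.14-fold for the laminins. Single chains carried much of this: the log2 ratio of the fibrillar sums was 3.70 with and 1.74 without COL5A1, and that of the collagen IV sums 0.38 with and 0.044 without COL4A2. The other collagens summed to 249 ± 17.9 FPKM in A498 and 72.1 ± 3.25 FPKM in 786-O, a ratio of 3.45, of which COL6A2 alone made 53.0% in A498 and 30.9% in 786-O. These sums are a description without a test.

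**Figure D1:**
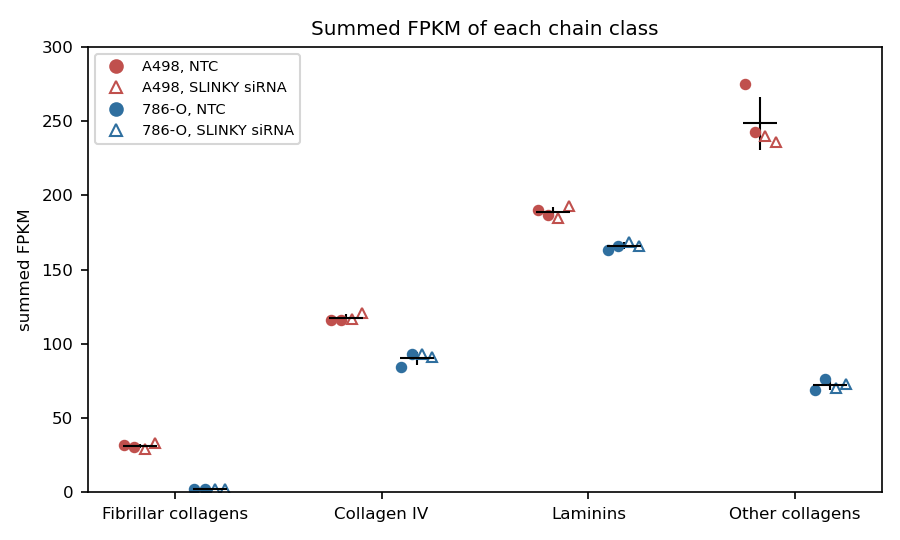
Summed FPKM (y axis, linear from 0) of the chains of each class (x axis) in the 4 libraries of A498 (red) and the 4 of 786-O (blue); filled circles are NTC libraries, open triangles are siRNA libraries, and the black marks are the mean with its SD. The fibrillar chains stood at 29.4 to 33.2 in A498 and 2.35 to 2.48 in 786-O, whereas the laminin sums were 185 to 193 in A498 and 163 to 169 in 786-O.

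A chain was tested if its mean over the 8 libraries was at least 1 FPKM, which 20 of the 56 met. The test was limma on log2(FPKM + 0.1) over all 10503 genes at that level, with the knockdown as covariate and Benjamini-Hochberg adjustment. The lines differ widely as a whole, since 83% of the genes tested passed an adjusted p of 0.05 in either direction, 15% were also at least 2-fold higher in A498 and 8.31% at least 2-fold lower. Among the 20 chains 10 were at least 2-fold higher in A498 and 3 at least 2-fold lower. Of these 13, 8 had reached the tested level through 1 line only, so that they had to differ, and the count is not support for a difference of the group. COL1A1, COL5A1, COL13A1, COL16A1, LAMA1 and LAMA5 were among them through A498, and COL6A3 through 786-O. The adjusted p-values given for these chains below are likewise not support. The 12 chains at 1 FPKM or more in both lines give the other view: 4 were at least 2-fold higher in A498, 1 was at least 2-fold lower, 5 passed the test at under 2-fold and 2 did not pass. The libraries of the lines did not overlap for 16 of the 20 chains, against 77.3% of all genes tested, and for 34 of the 55 chains that were above 0 anywhere, against 65.2% of all such genes. Neither share stands apart from the background, so what follows is about which chains moved and which way.

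**Figure D2:**
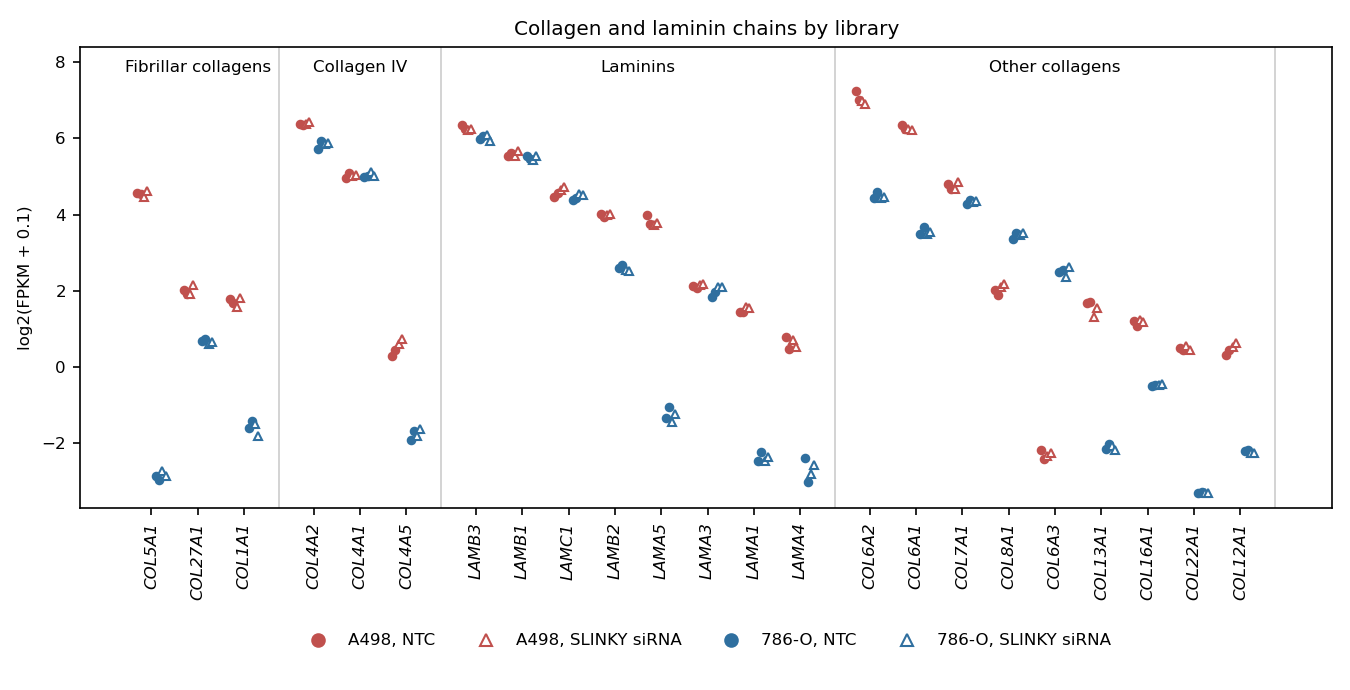
Level of chains with a mean of at least 1 FPKM in either line, as log2(FPKM + 0.1) on the y axis, in each library of A498 (red) and 786-O (blue), grouped by class; filled circles are NTC and open triangles siRNA libraries. The libraries of a line sit close together, COL4A1, LAMB1, LAMC1 and LAMA3 overlap between the lines, and COL6A3 and COL8A1 are lower in A498 without overlap.

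Collagen IV was led by its alpha1 and alpha2 chains, the pair found in nearly every basement membrane. In each list of values that follows, the libraries stand in the order NTC 1, NTC 2, siRNA 1, siRNA 2. COL4A1 (hg19 chr13:110801310-110959504) was at 31.1, 34.0, 31.9 and 32.6 FPKM in A498 and at 31.8, 32.3, 34.9 and 32.1 FPKM in 786-O. Its lines overlapped, and its log2 difference was -0.02 with an SE of 0.05 (adjusted p = 0.74, limma), the 95% interval running from -0.12 to 0.09. COL4A2 (hg19 chr13:110958159-111165556) was at 83.8, 80.9, 83.4 and 86.6 FPKM in A498 and at 52.2, 60.5, 58.0 and 58.7 FPKM in 786-O. Here every A498 library was above every 786-O library, by 0.55 on the log2 scale (SE 0.05, adjusted p = 2.3e-06, limma). The COL4A2 to COL4A1 ratio was accordingly 2.38 to 2.70 in A498 and 1.64 to 1.87 in 786-O.

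These genes lie head to head on chromosome 13 and are transcribed in opposite directions, and their hg19 spans given above, from another annotation, overlap. By their RefSeq starts on GRCh38, only 126 bases apart, they share the stretch that precedes both. It is printed because COL4A2 differed between the lines and COL4A1 overlapped, although both start from it. The bases next to the COL4A1 start are given below from RefSeq (GRCh38.p14, plus strand, chr13:110307158-110307257, no annotated exon), with a CCAAT letter run and a GGGCGG letter run, both searched on either strand, in capitals.
COL4A1 and COL4A2: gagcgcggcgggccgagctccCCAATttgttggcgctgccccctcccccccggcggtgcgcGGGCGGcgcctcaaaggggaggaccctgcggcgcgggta
Over 35116 RefSeq promoter windows, CCAAT occurred in the 250 bases before the start in 32.0% and GGGCGG in 42.6%, so that neither sets this stretch apart.

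The minor collagen IV chains were low and mostly an A498 signal. COL4A5, the alpha5 chain that partners alpha3 and alpha4 in the glomerulus or alpha6 elsewhere, was at 1.12, 1.27, 1.40 and 1.55 FPKM in A498 and at 0.166, 0.211, 0.182 and 0.226 FPKM in 786-O. It missed the level for the test, and the groups did not overlap. COL4A6, which lies head to head with it on the X chromosome, was at 0.141 to 0.275 FPKM in A498 and at most 0.00432 FPKM in 786-O, about 224 reads in all against 3. COL4A4 was at 0.0161 to 0.0392 FPKM in A498 and 0.00271 to 0.00809 FPKM in 786-O, and COL4A3 had at most 2 reads in A498 and none in 786-O, which is at the limit of this depth.

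Among the laminins the beta and gamma chains of the common trimer were alike in the lines, whereas LAMA5, LAMA1 and LAMA4 were not. LAMB1, the beta1 chain, was at 46.4, 49.3, 46.5 and 51.0 FPKM in A498 and at 46.2, 43.6, 42.9 and 46.7 FPKM in 786-O. LAMC1, the gamma1 chain found in most laminins, was at 21.9, 23.4, 24.9 and 26.1 FPKM in A498 and at 20.7, 21.6, 23.3 and 22.6 FPKM in 786-O. The lines overlapped for both, with log2 differences of 0.11 (SE 0.05, adjusted p = 0.058, limma) and 0.12 (SE 0.04, adjusted p = 0.019, limma). Neither side of the threshold was stable, the call of LAMC1 being lost in 5 alternatives and LAMB1 being called in 6. The LAMC1 to LAMB1 ratio was 0.472 to 0.535 in A498 and 0.449 to 0.542 in 786-O.

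Of the alpha chains, LAMA5, LAMA1 and LAMA4 were an A498 signal. LAMA5 (hg19 chr20:60883011-60942368), the alpha5 chain of mature kidney basement membrane, was at 15.6, 13.4, 13.2 and 13.7 FPKM in A498 and at 0.298, 0.383, 0.265 and 0.323 FPKM in 786-O. LAMA1 (hg19 chr18:6941741-7117796), the alpha1 chain of embryonic and proximal tubule basement membrane, was at 2.64, 2.62, 2.90 and 2.80 FPKM in A498 and at 0.0815, 0.111, 0.0809 and 0.0944 FPKM in 786-O. LAMA4, the alpha4 chain of vessel and muscle laminins, was at 1.62, 1.29, 1.53 and 1.33 FPKM in A498 and at 0.0921, 0.0221, 0.0415 and 0.0688 FPKM in 786-O. For all 3 the lines were far apart in every library. On the log2 scale LAMA5 was higher in A498 by 5.08 (SE 0.09, adjusted p = 2.0e-11) and LAMA1 by 3.89 (SE 0.10, adjusted p = 1.9e-10, limma), and LAMA4 was under the level for the test. LAMA5 and LAMA1 reached that level through A498 only and so had to differ. LAMA2, the muscle alpha2 chain, was at 0.0537 to 0.0861 FPKM in A498 and 0.0605 to 0.0848 FPKM in 786-O, with overlap. In 786-O the highest alpha chain was thus LAMA3, at 3.91 ± 0.325 FPKM (SD, n = 4), beside LAMB1 at 44.8 ± 1.88 FPKM.

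LAMB2 (hg19 chr3:49158547-49170551), the beta2 chain that replaces beta1 in the glomerulus and at the synapse, was at 15.9, 15.3, 15.7 and 16.1 FPKM in A498 and at 5.98, 6.27, 5.79 and 5.60 FPKM in 786-O. It was present in both lines and higher in A498 by 1.40 on the log2 scale (SE 0.05, adjusted p = 1.7e-09, limma). LAMC3, the gamma3 chain, was at 0.592 to 0.688 FPKM in A498, about 563 reads, and at most 0.00721 FPKM in 786-O, about 5 reads. LAMB4 was at 0.0333 to 0.0600 FPKM in A498 and at most 0.00487 FPKM in 786-O.

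The alpha3 and beta3 chains, which belong to the laminin of epithelial anchorage in skin and other epithelia, were close between the lines. LAMB3 (hg19 chr1:209788215-209825770), the beta3 chain and the highest laminin of both lines, was at 81.0, 76.1, 74.8 and 75.8 FPKM in A498 and at 63.2, 67.1, 67.9 and 61.4 FPKM in 786-O. LAMA3 (hg19 chr18:21269417-21536186), the alpha3 chain, was at 4.22, 4.11, 4.38 and 4.46 FPKM in A498 and at 3.49, 3.83, 4.19 and 4.14 FPKM in 786-O. Every A498 library was above every 786-O library for LAMB3, whereas LAMA3 overlapped. The log2 difference was 0.25 for LAMB3 (SE 0.04, adjusted p = 0.00048) and 0.13 for LAMA3 (SE 0.05, adjusted p = 0.041, limma). The call for LAMA3 was lost without any 1 of the 8 libraries (adjusted p = 0.051 to 0.13), and its interval was 0.01 to 0.26. LAMA3 per LAMB3 was 0.0521 to 0.0588 in A498 and 0.0551 to 0.0675 in 786-O.

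A stretch before a start of each of these chains is shown because letter runs of AP-1, the dimer of FOS and JUN proteins known for epithelial laminin genes, occur in both. TGACTCA, searched on both strands, is in capitals in the RefSeq sequence (GRCh38.p14) of LAMA3 at chr18:23872870-23873019 on the plus strand and LAMB3 at chr1:209651395-209651524 on the minus strand, neither of which holds an annotated exon.
LAMA3: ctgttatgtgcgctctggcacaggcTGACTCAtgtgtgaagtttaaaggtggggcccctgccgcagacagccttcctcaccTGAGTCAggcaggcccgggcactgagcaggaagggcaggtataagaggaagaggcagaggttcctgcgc
LAMB3: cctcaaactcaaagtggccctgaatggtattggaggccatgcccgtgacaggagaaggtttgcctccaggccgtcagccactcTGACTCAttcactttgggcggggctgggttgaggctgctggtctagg
The run occurred in 4.20% of the 35116 windows of 250 bases and at least 2 times in 0.182%. These shares are of single windows of all genes, expressed or not, and are not shares of chains. Of the 20 tested chains 15 had a window in the table, and LAMA3 and LAMB3 were the only ones of the 15 with the run in any window. LAMB3 has 3 windows, and the run was in that of the start farthest downstream and in neither of the others. In the hg19 files the entry with the start farthest downstream, at 209824679, held only 8.08 to 12.8% of the FPKM of LAMB3 in a library. COL6A1, COL1A1, COL8A1 and LAMA1 are not shown. A letter run is a description and not a site that was measured here.

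**Figure D3:**
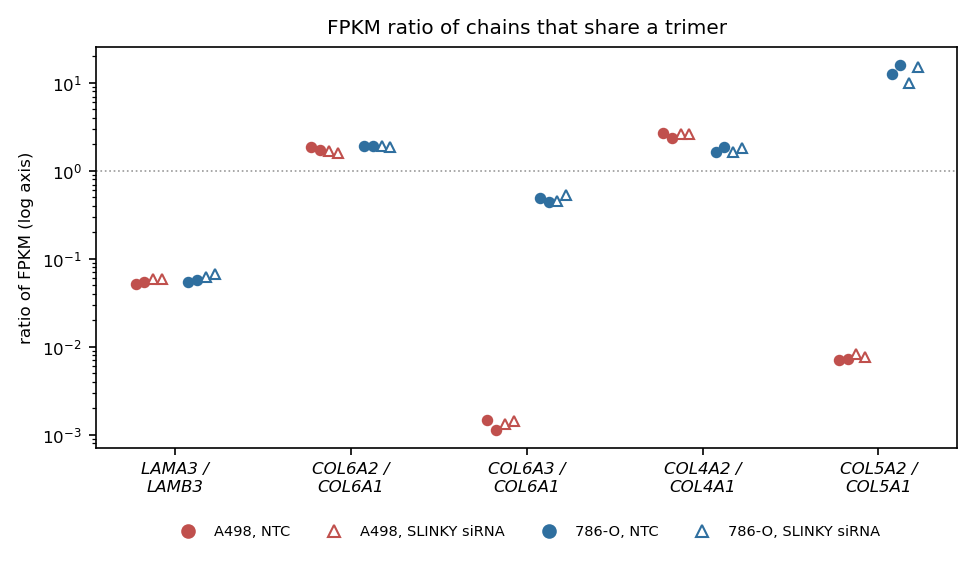
Ratio of the FPKM of pairs of chains that occur in the same trimers (x axis), on a log y axis, in the 4 libraries of A498 (red) and of 786-O (blue), with NTC as filled circles and siRNA as open triangles; the dotted line marks equal levels. LAMA3 per LAMB3 and COL6A2 per COL6A1 are close in the lines, while COL6A3 per COL6A1 and COL5A2 per COL5A1 are far lower in A498.

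The 3 fibrillar chains at the tested level were higher in A498. COL5A1 and COL1A1 reached that level through A498 only and so had to differ, which leaves COL27A1. COL5A1 (hg19 chr9:137533649-137736689), the alpha1 chain of collagen V, which starts and narrows collagen fibres, was at 23.7, 23.4, 22.1 and 24.6 FPKM in A498 and at 0.0368, 0.0281, 0.0498 and 0.0361 FPKM in 786-O. COL1A1 (hg19 chr17:48261462-48278993), the alpha1 chain of collagen I, the main fibre of bone and skin, was at 3.36, 3.12, 2.87 and 3.42 FPKM in A498 and at 0.231, 0.273, 0.253 and 0.186 FPKM in 786-O. COL27A1, a fibrillar chain of cartilage, was at 3.96, 3.66, 3.68 and 4.31 FPKM in A498 and at 1.504, 1.56, 1.42 and 1.48 FPKM in 786-O. None of the 3 overlapped between lines, and COL5A1 made 74.7% of the class in A498, COL27A1 61.8% in 786-O. On the log2 scale COL5A1 was higher in A498 by 7.42 (SE 0.07, adjusted p = 1.1e-12), COL1A1 by 3.30 (SE 0.10, adjusted p = 1.1e-09) and COL27A1 by 1.33 (SE 0.07, adjusted p = 6.0e-08, limma).

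The chains that partner them in the usual trimers were low. COL1A2, the alpha2 chain of collagen I, had about 2 reads in the 4 A498 libraries together and none in 786-O. COL5A2, the alpha2 chain of collagen V, was at 0.168 to 0.189 FPKM in A498 and 0.448 to 0.550 FPKM in 786-O, and was thus the fibrillar chain higher in 786-O. COL5A3, the alpha3 chain of that collagen, was at 0.352 to 0.457 FPKM in A498 and had no read in 786-O, which makes it at least 149.7-fold higher in A498 when 3 reads pooled over the 786-O libraries are taken as the floor. Per unit length, COL5A2 stood at 0.00709 to 0.00820 of COL5A1 in A498, and in 786-O both were low. COL3A1, the chain of collagen III, which accompanies collagen I in fibroblasts, was listed at 0 in all 8 libraries. COL2A1 had about 1 read in A498 and none in 786-O, and COL11A1 had 12 and 7 reads. COL24A1 was at 0.0448 to 0.0736 FPKM in A498 and at most 0.00337 FPKM in 786-O, and COL11A2 overlapped between the lines at 0.118 to 0.175 FPKM. The summed fibroblast and pericyte markers were also higher in A498 (1.33 to 2.03 against 0.633 to 0.855 FPKM). Of the 7, POSTN (1.49 against 0.00781 FPKM), FAP (0.123 against 0.00562), DCN (0.0324 against 0.00616) and PDGFRA (0.0126 against 0.000606) had the higher mean in A498, and LUM (0.0114 against 0.543), THY1 (0.0471 against 0.0900) and PDGFRB (0.0305 against 0.0819) in 786-O. Their part in the fibrillar difference was not tested.

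Collagen VI, a beaded-filament collagen of most tissues built of an alpha1, an alpha2 and usually an alpha3 chain, split between the lines. COL6A1 (hg19 chr21:47401684-47424964) was at 81.6, 75.4, 75.3 and 74.2 FPKM in A498 and at 11.1, 12.7, 11.2 and 11.6 FPKM in 786-O. COL6A2 (hg19 chr21:47518026-47552762), its neighbour on chromosome 21, was at 152, 129, 127 and 119 FPKM in A498 and at 21.4, 24.1, 21.4 and 22.0 FPKM in 786-O. COL6A3 (hg19 chr2:238232646-238322971) was at 0.121, 0.0861, 0.0992 and 0.107 FPKM in A498 and at 5.50, 5.68, 5.06 and 6.12 FPKM in 786-O. COL6A1 and COL6A2 were higher in every A498 library and COL6A3 in every 786-O library. The log2 difference was 2.71 for COL6A1 (SE 0.05, adjusted p = 3.4e-11), 2.56 for COL6A2 (SE 0.06, adjusted p = 1.8e-10) and -4.81 for COL6A3 (SE 0.09, adjusted p = 4.0e-11, limma). COL6A3 reached the tested level through 786-O only and so had to differ. COL6A2 per COL6A1 was close in the lines, at 1.60 to 1.87 in A498 and 1.89 to 1.94 in 786-O. COL6A3 per COL6A1 was 0.00114 to 0.00148 in A498 and 0.446 to 0.525 in 786-O. COL6A5 and COL6A6, which can take the place of the alpha3 chain, were at most 0.0424 and 0.00514 FPKM in any library.

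The 100 bases before the COL6A2 start are printed as those of the highest collagen of A498 (RefSeq, GRCh38.p14, chr21:46098012-46098111, plus strand, no annotated exon), with GGGCGG and TATAAA in capitals, searched on both strands.
COL6A2: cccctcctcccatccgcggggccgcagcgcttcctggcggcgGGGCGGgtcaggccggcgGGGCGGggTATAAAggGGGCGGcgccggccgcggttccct
Of the 15 tested chains with a window 3 held TATAAA (COL6A2, COL7A1 and COL13A1), against 10.7% of all windows. GGGCGG was held by 13 of the 15, against 42.6%. A chain was counted with the run in any of its windows, whereas the shares are of single windows of all genes, expressed or not. These measures are unlike, so an enrichment cannot be read from them. COL6A3 held none of the 4 letter runs searched, which says only that those letters are not in its window.

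The remaining collagens at 1 FPKM or more were mostly higher in A498. COL7A1, the chain of the fibrils that anchor an epithelium to its base, was at 27.6, 25.2, 25.4 and 28.8 FPKM in A498 and at 19.1, 20.8, 20.1 and 20.4 FPKM in 786-O. COL13A1, a transmembrane collagen of cell adhesions, was at 3.12, 3.17, 2.36 and 2.82 FPKM in A498 and at 0.126, 0.148, 0.136 and 0.122 FPKM in 786-O. COL16A1, which associates with fibrils, was at 2.19, 1.99, 2.27 and 2.17 FPKM in A498 and at 0.602, 0.614, 0.619 and 0.639 FPKM in 786-O. COL7A1 was high in both lines and only 0.41 higher in A498 on the log2 scale (SE 0.05, adjusted p = 5.3e-05), whereas COL13A1 was higher by 3.66 (SE 0.10, adjusted p = 3.9e-10) and COL16A1 by 1.65 (SE 0.07, adjusted p = 1.2e-08, limma). COL13A1 and COL16A1 reached the tested level through A498 only and so had to differ. COL8A1, a short-chain network collagen of vessel walls and of the membrane behind the cornea, was at 3.94, 3.59, 4.16 and 4.40 FPKM in A498 and at 10.1, 11.2, 10.9 and 11.3 FPKM in 786-O. Its log2 difference was -1.42 (SE 0.06, adjusted p = 8.5e-09, limma), and its usual partner COL8A2 was at most 0.0333 FPKM in any library. COL12A1, which decorates collagen I fibres, was at 1.15, 1.25, 1.33 and 1.44 FPKM in A498 and at 0.115, 0.122, 0.107 and 0.108 FPKM in 786-O. COL22A1, a collagen of muscle and tendon junctions, was at 1.32, 1.27, 1.37 and 1.26 FPKM in A498, about 1208 reads, and had 1 read in the 4 libraries of 786-O. Both were well apart in the lines and under the level for the test.

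The rest of the class was under 1 FPKM in both lines. COL17A1, a hemidesmosome collagen, was at 0.535 to 0.637 FPKM in A498 and 0.141 to 0.185 FPKM in 786-O. COL28A1 was at 0.299 to 0.408 FPKM in A498 and 0.00933 to 0.0330 FPKM in 786-O, and COL14A1, which also decorates fibres, at 0.00635 to 0.0240 FPKM in A498 and 0.227 to 0.297 FPKM in 786-O. With COL5A2, COL14A1 was the only chain under the tested level that was higher in 786-O without overlap. COL20A1 was at 0.0601 to 0.0641 FPKM in A498 and at most 0.0117 FPKM in 786-O, and COL26A1 was at 0.0284 to 0.0404 FPKM in A498 with no read in 786-O, at least 6.14-fold higher at the pooled floor of 3 reads. COL9A2, COL9A3 and COL15A1 overlapped between the lines at 0.0120 to 0.198 FPKM. COL6A5, COL6A6, COL8A2, COL9A1, COL10A1, COL19A1, COL21A1, COL23A1 and COL25A1 were under 0.05 FPKM in every library, where a difference was not detectable at this depth.

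COL18A1, a basement membrane collagen whose end fragment is endostatin, needs its own account. Its matched entry was at 0.221 to 0.776 FPKM in A498 and at most 0.108 FPKM in 786-O. An entry without a current symbol, which spans hg19 chr21:46825097-46933634 within the annotated COL18A1 gene, was at 33.1, 29.97, 30.5 and 27.7 FPKM in A498 and at 46.1, 51.6, 45.1 and 47.1 FPKM in 786-O. That is 30.3 ± 2.23 FPKM (SD, n = 4) against 47.5 ± 2.90 FPKM, -0.65 on the log2 scale, the other way round from the matched entry and without overlap. The rule does not count it. Counted as COL18A1, a choice made after the data were seen, it lowers the log2 ratio of the other-collagen sums from 1.79 to 1.22.

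**Figure D4:**
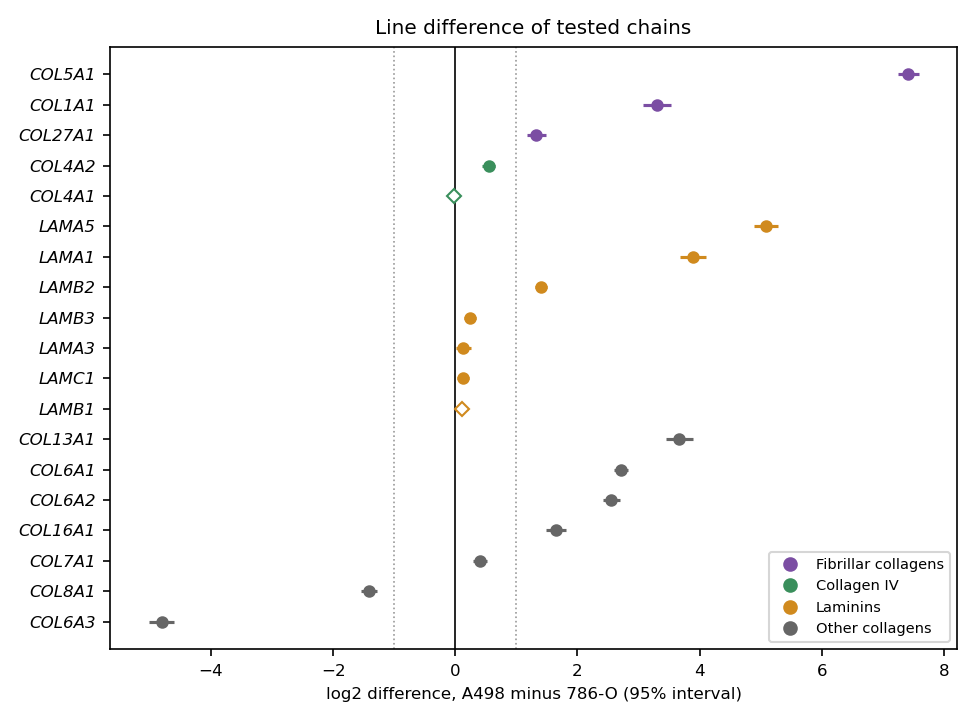
Difference between the lines, A498 minus 786-O on the log2(FPKM + 0.1) scale, of tested chains (y axis) with its 95% interval, coloured by class; dotted lines mark 2-fold, and open diamonds did not pass an adjusted p of 0.05. COL5A1 at 7.42 and COL6A3 at -4.81 are the ends of the range drawn, and COL4A1, LAMB1, LAMC1, LAMA3 and LAMB3 lie within 0.25 of 0.

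Several chains have entries with different ends, which Cufflinks shares out among overlapping transcripts from 36-base reads. For LAMA3 the entries that start at hg19 chr18 position 21452984 made 66.8 ± 2.03% (SD, n = 4) of its FPKM in A498 and 62.0 ± 3.46% in 786-O, and those that start at 21269562 made the rest. For LAMB3 the entry that starts at chr1 position 209825674 made 67.9 ± 5.74% in A498 and 56.1 ± 12.2% in 786-O. For COL6A2 the entry that ends at chr21 position 47552763 made 88.2 ± 1.62% in A498 and 78.9 ± 1.44% in 786-O. Of the 3, only COL6A2 did not overlap between the lines. A two-sided exact permutation test over the 4 and 4 libraries gave p = 0.057, 0.14 and 0.029 in that order, the last being the smallest it can give, and 0.086, 0.14 and 0.086 after Benjamini-Hochberg adjustment over the 3. COL6A2 was chosen for this after its values were seen.

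Genes of collagen processing, enzymes and their helper proteins, were also compared, from a list of 32. Of its 26 members at the tested level 14 were higher in A498 and 10 lower, with a median log2 difference of 0.23 beside -0.02 for all genes tested, and 7 and 3 were past 2-fold, to be read against the 83%, 15% and 8.31% of all genes given above. LOX, LOXL1, PCOLCE and TLL2 reached the tested level through 1 line only and so had to differ, which leaves 4 and 2 past 2-fold among the other 22. PCOLCE, which speeds the removal of the procollagen end, was at 4.82 ± 0.332 FPKM (SD, n = 4) in A498 and 0.785 ± 0.0900 FPKM in 786-O. Its relative PCOLCE2 was at 23.6 ± 1.38 FPKM in A498 and 4.56 ± 0.362 FPKM in 786-O. LOXL1, which cross-links collagen and elastin, was at 0.554 ± 0.0544 FPKM in A498 and 6.24 ± 0.295 FPKM in 786-O, and P3H3, of the prolyl 3-hydroxylase family, was at 26.0 ± 2.03 FPKM in A498 and 80.6 ± 5.10 FPKM in 786-O. These 4 had the largest differences on the list, 2.48, 2.35, -3.28 and -1.63 on the log2 scale (adjusted p at most 9.1e-10, limma). P4HA3, COLGALT2, TLL1, ADAMTS14, LOXL3 and LOXL4 were under the tested level.

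From a list of 14 basement membrane partners 11 were tested, of which 7 were higher in A498, all past 2-fold, and 4 lower, 1 of them past 2-fold. Their median log2 difference was 1.65 beside -0.02 for all genes tested. Of all genes tested 83% passed in either direction, 15% were at least 2-fold higher in A498 and 8.31% at least 2-fold lower. FBLN1, BCAM and TINAGL1 reached the tested level through 1 line only and so had to differ. Of the other 8 partners 5 were at least 2-fold higher and 0 at least 2-fold lower by limma. AGRN, DAG1 and HSPG2 were lower in A498 at under 2-fold (-0.26, -0.36 and -0.42 on the log2 scale). FBLN1, a fibulin that binds laminin and nidogen, was at 132, 126, 126 and 127 FPKM in A498 and at 0.0943, 0.128, 0.0896 and 0.0975 FPKM in 786-O. PXDN, the peroxidase that cross-links collagen IV, was at 85.9, 87.3, 89.6 and 91.3 FPKM in A498 and at 2.85, 2.62, 2.60 and 2.91 FPKM in 786-O. BCAM, a receptor for laminin alpha5, was at 9.21, 7.91, 8.26 and 8.395 FPKM in A498 and at 0.269, 0.233, 0.146 and 0.255 FPKM in 786-O. These 3 stood far apart in every library, and BCAM followed LAMA5 in being near 0 in 786-O. TINAGL1, a secreted matrix protein of tubule basement membrane, went the other way, at 0.489, 0.481, 0.499 and 0.533 FPKM in A498 and at 22.2, 24.9, 23.0 and 30.1 FPKM in 786-O. The log2 differences were 9.30 for FBLN1 (SE 0.06), 4.96 for PXDN (SE 0.05), 4.73 for BCAM (SE 0.12) and -5.38 for TINAGL1 (SE 0.09), with adjusted p of 5.2e-13, 1.1e-12, 2.4e-10 and 1.3e-11 by limma. NID2, FBLN2 and DDR2 were under the tested level.

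The knockdown was compared with NTC to see which transcripts change with the loss of SLINKY, and for these chains no change passed a test in either line. Of the 20 tested chains none was called in A498, where 3 of the 10503 genes were (0.0286%), and none in 786-O, where none of all genes was (0%). None was called over both lines, where again 0% of all genes were, and none for a difference of the knockdown between lines, where 1 gene was (0.00952%). At an unadjusted p under 0.05 the limma fits gave 3 of the 20 chains in A498, 0 in 786-O, 3 over both lines and 0 for the difference, beside 639, 398, 1249 and 191 of all genes. The smallest adjusted p of any chain was 0.34, over both lines. On the log2(FPKM + 0.1) scale, over both lines all 20 had a 95% interval within 1.5-fold of no change. The widest reached 1.31-fold down and 1.26-fold up. Within A498 alone 19 of the 20 were within 1.5-fold, and within 786-O all 20. COL5A1 at 0.0377 FPKM, LAMA1 at 0.0920 FPKM and COL13A1 at 0.133 FPKM in 786-O, and COL6A3 at 0.103 FPKM in A498, were near or under the 0.1 added. For such chains the 0.1 shrinks any fold, so the intervals do not bound a change in that line. The 2 siRNAs of a line were fitted as replicates.

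At a threshold of at least 1.25-fold in the same direction with both siRNAs, 0 of the 20 chains changed in A498 and 0 in 786-O, against 1.1% and 1.17% of all genes tested. Single siRNA libraries ran from -0.40 to 0.37 on the log2 scale against the NTC mean in A498 and from -0.30 to 0.19 in 786-O. The median size of these differences was 0.0873 and 0.0793, beside a median difference of 0.107 and 0.108 between the 2 NTC libraries of the line. These measures are unlike, since a mean of 2 libraries varies less than a single library. The smaller size is thus not support for the absence of a change. The summed classes differed little with the knockdown, by -0.12 on the log2 scale for the other collagens of A498 and by -0.03 to 0.06 for the other 7 sums. NTC 1 of A498 was the highest library for COL6A1 and COL6A2, at 81.6 and 152 FPKM. Without that library the other collagens of A498 differed by -0.03. They differed by -0.21 without NTC 2, -0.13 without siRNA 1 and -0.11 without siRNA 2. These values were computed after the data were seen, and the cause was not tested.

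**Figure D5:**
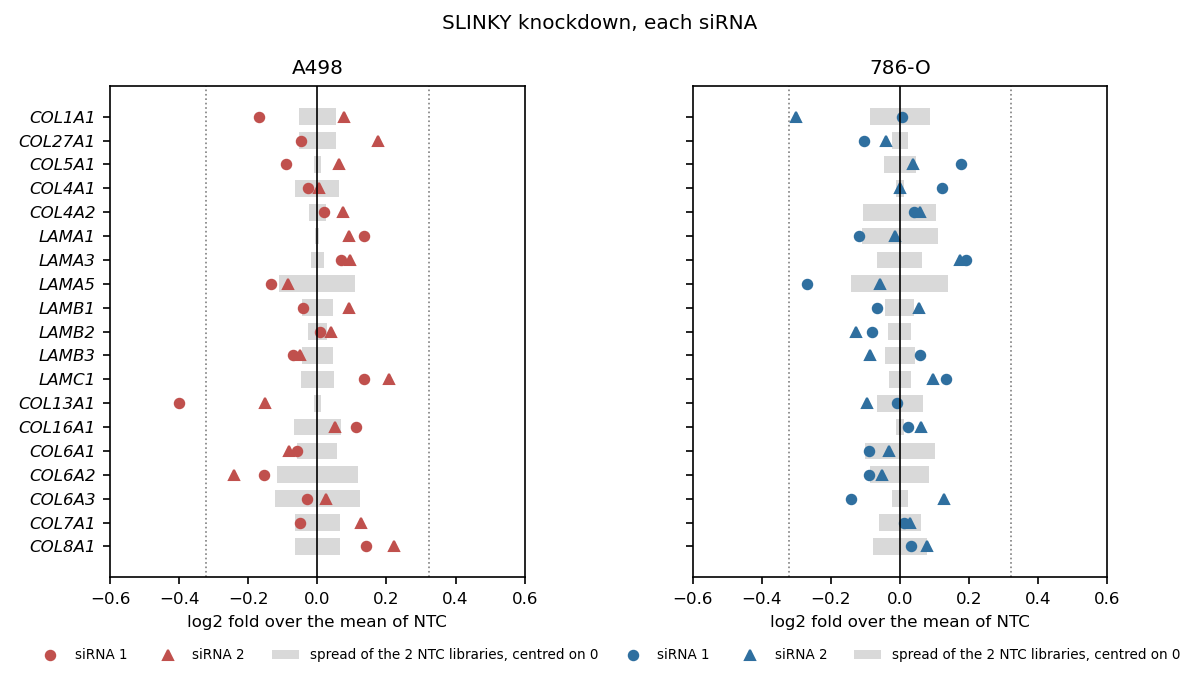
Log2 fold of each siRNA library over the mean of the 2 NTC libraries (x axis) for tested chains (y axis) in A498 and 786-O; circles are siRNA 1, triangles siRNA 2, grey bars the spread between the NTC libraries centred on 0, and dotted lines 1.25-fold. No chain has both siRNAs past a dotted line on the same side, and LAMA3, LAMC1, COL4A2, COL8A1 and COL16A1 lie right of 0 in all 4 libraries, as LAMA5, COL6A1, COL6A2 and COL13A1 lie left of it. The 2 folds of a line share the same NTC mean. The share of all genes with the same sign in all 4 was not computed, so the signs are a description and not a response shown.

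COL13A1, LAMC1 and LAMA3 were among the chains with the largest difference over both lines. LAMC1 was at 21.9 and 23.4 FPKM with NTC against 24.9 and 26.1 FPKM with the siRNAs in A498, and at 20.7 and 21.6 against 23.3 and 22.6 FPKM in 786-O. LAMA3 was at 4.22 and 4.11 against 4.38 and 4.46 FPKM in A498, and at 3.49 and 3.83 against 4.19 and 4.14 FPKM in 786-O. For both of these laminin chains the siRNA libraries were above the NTC libraries in both lines, and such a separation was found, in the same direction in both lines, for 3 of the 20 chains and for 11.7% of all genes tested. Over both lines the log2 difference was 0.14 for LAMC1 (SE 0.04, adjusted p = 0.34) and 0.13 for LAMA3 (SE 0.05, adjusted p = 0.40, limma), so neither passed. COL13A1 was at 3.12 and 3.17 against 2.36 and 2.82 FPKM in A498 and at 0.126 and 0.148 against 0.136 and 0.122 FPKM in 786-O. Over both lines its log2 difference was -0.16 (SE 0.10, adjusted p = 0.52, limma). Its 786-O levels were near the 0.1 added, which shrinks a fold in that line. Both siRNA libraries lay outside the NTC pair for 9 of the 20 chains in A498 and 6 in 786-O, beside 37.3% and 32.8% of all genes.

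None of the 26 collagen-processing genes and none of the 11 basement membrane partners was called in any of the knockdown fits. The smallest adjusted p was 0.35 for the processing genes and 0.50 for the partners, both over both lines (limma).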

How the data were processed

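Per the labels, libraries were made from total RNA with a TruSeq kit, which does not mark strand, so that reads of a chain and of an antisense gene cannot be told apart, and were processed by the authors with TopHat2 2.0.0 and Cufflinks 2.0.2 on hg19. The deposited values were FPKM per RefSeq entry, each with a 95% interval. Here NM entries were given current symbols (97.7% of 35951 matched) and their FPKM summed per symbol, and read numbers were computed from the width of the interval. Differences were fitted with limma 3.58.1 in R 4.3.3 on log2(FPKM + 0.1) with a variance trend, over the 10503 genes with a mean of at least 1 FPKM, so that folds of low genes are understated. Scripts were tested on simulated data. Chains with a mean of at least 1 FPKM in either line are given by library, and chains of the largest knockdown differences and the 4 largest called differences of each partner list are named. The results of 1 chain, which counts and sums include, are not reported here. The members, lists and tests were chosen with earlier results of these data known. Permutation tests used SciPy.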

Additional observations from a re-analysis of the deposited data

Results flagged for a closer look

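Among 48 sets of 4 libraries, 2 held a library far from the others by Dixon's test, and chance flags about 1 in 20. COL6A1 was at 81.6 FPKM in NTC 1 of A498, above the other three. COL22A1 was at 0.00252 FPKM in NTC 2 of 786-O, which is 1 read, with 0 in the rest. The entry at the COL18A1 locus that has no current symbol, and so is outside the comparisons, was at 47.5 FPKM on average in 786-O.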

How the results depend on the processing

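The counts of 10 chains higher and 3 lower in A498 stayed within 1.5 times under another pseudocount, median ratio scaling, the highest entry of a symbol, no variance trend, NTC or knockdown libraries only, and, chosen after seeing the data, non-coding entries or the COL18A1-locus entry. They rose to 20 and 5 with no filter and with a filter of 0.1 FPKM, because more chains are tested. No chain was called for the knockdown under any alternative. The 1.25-fold count in 786-O was 1 with no filter and with the filter of 0.1 FPKM, and in A498 it was 0 to 1 without single libraries, 1 when either siRNA stood alone. Of the class ratios on the log2 scale, the fibrillar one fell to 1.74 without COL5A1, collagen IV to 0.044 without COL4A2 and the other collagens to 1.23 without COL6A2 and 1.22 with the COL18A1-locus entry. The laminin ratio was 0.25 with the highest entry, 0.24 with median ratio scaling and 0.14 without LAMB3. Without single libraries the ratios were 3.67 to 3.73 (fibrillar), 0.35 to 0.40 (collagen IV), 0.17 to 0.19 (laminin) and 1.73 to 1.81 (other). COL4A1, which was not called, changed sign to 0.041 with median ratio scaling, 0.020 with NTC libraries only, 0.0014 without NTC 1 of A498 and 0.015 without siRNA 1 of 786-O, and ran from -0.049 to 0.015 without single libraries. Among the line differences, 312 of the values under an alternative kept direction and side of the threshold, LAMA3 lost its call in 12 and LAMC1 in 5, and LAMB1 gained it in 6. The cause was not tested.

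The replicate numbers are not shown to pair libraries, since deviations of same-numbered libraries correlated at 0.25 in A498 and -0.03 in 786-O. With the replicate block the counts were 10 higher, 3 lower and 0 for each knockdown fit. Leaving out genes under 200 bp changed nothing, since none passed the filter. Depth limits the chains under about 0.05 FPKM, which rest on a few reads a library, and 2 libraries a group limit every knockdown test.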
